A study of Mus musculus with 6 samples.

Results

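The 9 genes Hemgn, Faiml, Dcdc2c, Fam71b, Ccer1, Ccin, Abra, Cypt4 and Ropn1l were examined among the 30905 genes counted in single cells of mouse testis. They are genes of spermatids, the haploid cells that turn into sperm, and were picked because their levels lay lower in smoking than in control libraries when cells of equal protamine and transition protein content were compared. The smoking against control differences at equal content are therefore given below as descriptions, without tests and not as support for a difference. Members were found by gene symbol, and all 9 were measured in all 6 libraries.

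The study asked what passive smoking does to the testis and to sperm formation. The smoking group was ICR males, an outbred stock, kept in a chamber with the smoke of 15 cigarettes for 30 minutes per day over 12 weeks. The control group was ICR males placed in such a chamber without smoke for the same 12 weeks. Both groups were bought at 6 weeks of age and adapted for 1 week, which differs from the labelled age of 8 weeks. Each group had 7 mice and gave 3 libraries from left testes after removal of dead cells. The labels do not say which mouse or mice a library came from, so any p-value measures the spread between these libraries only.

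In a spermatid the histones are first replaced by transition proteins (Tnp1 and Tnp2) and then by protamines (Prm1 and Prm2), the small basic proteins that compact sperm chromatin. As chromatin closes, transcription stops, and the mRNAs made before that point are stored, used and then lost. During the same period the acrosome spreads over the nucleus, a cytoskeletal shell called the perinuclear theca forms around it, and the flagellum is built.

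The members take part in several of these events. Ccer1 (coiled-coil glutamate-rich protein 1) encodes a nuclear protein needed for the exchange of histones for protamines in mice, and Hemgn (hemogen) a nuclear protein otherwise known from blood-forming cells. Ccin encodes calicin, a protein of the perinuclear theca that shapes the sperm head, and Cypt4 belongs to the cysteine-rich perinuclear theca family. Ropn1l encodes a ropporin-like protein of the sperm flagellum that docks on A-kinase anchoring proteins, and Dcdc2c carries doublecortin domains, which bind microtubules. Fam71b is a relative of the Fam71 proteins that bind the small GTPase Rab2, Abra encodes an actin-binding protein known from heart and skeletal muscle, and Faiml is named for its likeness to the apoptosis inhibitor gene Faim.

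By the GENCODE M21 annotation of mm10, Hemgn lies on chromosome 4 from 46393989 to 46413506 (minus strand), Faiml on chromosome 9 from 99229376 to 99237239 (minus), Dcdc2c on chromosome 12 from 28437795 to 28552399 (minus) and Fam71b on chromosome 11 from 46396559 to 46407982 (plus). Ccer1 lies on chromosome 10 from 97693059 to 97694923 (plus), Ccin on chromosome 4 from 43983483 to 43985423 (plus), Abra on chromosome 15 from 41864076 to 41869720 (minus), Cypt4 on chromosome 9 from 24625196 to 24625824 (plus) and Ropn1l on chromosome 15 from 31441211 to 31453737 (minus). All 9 are protein coding, and Ccer1, Ccin and Cypt4 consist of 1 exon. Cypt4 overlaps Dpy19l2 and Ccer1 overlaps Gm10754 on the opposite strand, so counts of these genes are uncertain where reads could be assigned to either.

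Promoters of 7 members were in the RefSeq table of GRCm38.p6, those of Ccer1 and Abra were not. The cAMP response element, a motif known from promoters of many spermatid genes, was searched as TGACGTCA and as its shorter core TGACG, on both strands in the 250 bases before each start. The 3 members below held the core, and they are shown because it lay at nearly the same distance from the start in each, 45 to 50 bases before it. Capitals mark TGACGTCA in Ccin and the core, read on the other strand as CGTCA, in Faiml and Dcdc2c. The stretches are chr4:43983363-43983482 (plus strand, ending 22 bases before the start) for Ccin, chr9:99237240-99237359 (minus) for Faiml and chr12:28552400-28552519 (minus) for Dcdc2c.
Ccin: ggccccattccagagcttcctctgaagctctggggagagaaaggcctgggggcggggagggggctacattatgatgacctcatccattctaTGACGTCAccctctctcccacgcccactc
Faiml: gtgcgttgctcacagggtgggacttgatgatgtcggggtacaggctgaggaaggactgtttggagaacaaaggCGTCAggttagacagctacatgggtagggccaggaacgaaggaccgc
Dcdc2c: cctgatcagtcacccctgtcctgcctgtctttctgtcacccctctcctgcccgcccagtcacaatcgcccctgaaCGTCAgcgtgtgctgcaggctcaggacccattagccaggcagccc
The full element was in 1 of 7 members and in 1.55% of 32851 promoters of the same length, and the core in 3 of 7 members and in 17.8% of them. In Ccin the core matches lie inside the full element, and another annotated start of Dcdc2c had neither. Of the other motifs searched, GTTGCC, a part of the X-box of ciliary genes, was found on either strand in 10.4% of promoters and among the members in Ropn1l, 20 bases before the start. TATAAA on the gene's strand was found in 7.59% of promoters and among the members in Hemgn, 80 bases before the start. These are matches of letters and do not show that a factor binds there.

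The libraries held 8839, 9293 and 9976 deposited barcodes in smoking 1 to 3 and 8598, 8844 and 8703 in control 1 to 3. Library totals were 55751481, 65728120 and 78455606 UMIs (unique molecular identifiers, each marking a captured RNA molecule) in smoking 1 to 3 and 40675108, 39607204 and 54915594 in control 1 to 3. Barcodes with at least 10000 UMIs and at most 20% mitochondrial UMIs numbered 1074, 1112 and 1893 in smoking libraries and 517, 442 and 1109 in control libraries, and the results below rest on these. Any pair of libraries shared between 16 and 34 barcode sequences. Smoking 3 and control 3 stood apart from the others of their group in the makeup of barcodes described below, and values without them are given where they moved a result.

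Stage was read from the percent of a barcode's UMIs that came from Prm1, Prm2, Tnp1 and Tnp2 together, and levels are UMI counts scaled to an equal library total (CPM, counts per 1000000 UMIs) of the summed barcodes. Hemgn, Faiml, Dcdc2c, Fam71b and Abra were nearly absent from barcodes below 1 percent and highest at 15 to 20 percent. Over all libraries Hemgn was at 10.7 CPM below 1 percent, 733.8 CPM at 15 to 20 percent and 30.03 CPM at 30 percent or more. Faiml was at 2.75, 164 and 5.83 CPM in the same 3 ranges, and Abra at 1.63, 109.7 and 3.79 CPM. These 5 genes were 47.6- to 68.3-fold higher at their peak than below 1 percent, so they appeared late, and they were nearly gone again at 30 percent or more.

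The other 4 members were already present early and were highest at 10 to 15 percent. Ropn1l was at 3662 CPM below 1 percent, 3760 CPM at 10 to 15 percent and 321 CPM at 30 percent or more. Ccer1 was at 276, 654 and 37.0 CPM in these ranges, Cypt4 at 535, 2064 and 180 CPM, and Ccin at 56.8, 449 and 26.5 CPM. The 9 genes thus differ in when they appear and share the time at which they are lost: their peak was 11.4- to 43.3-fold above the level at 30 percent or more.

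**Figure D1:**
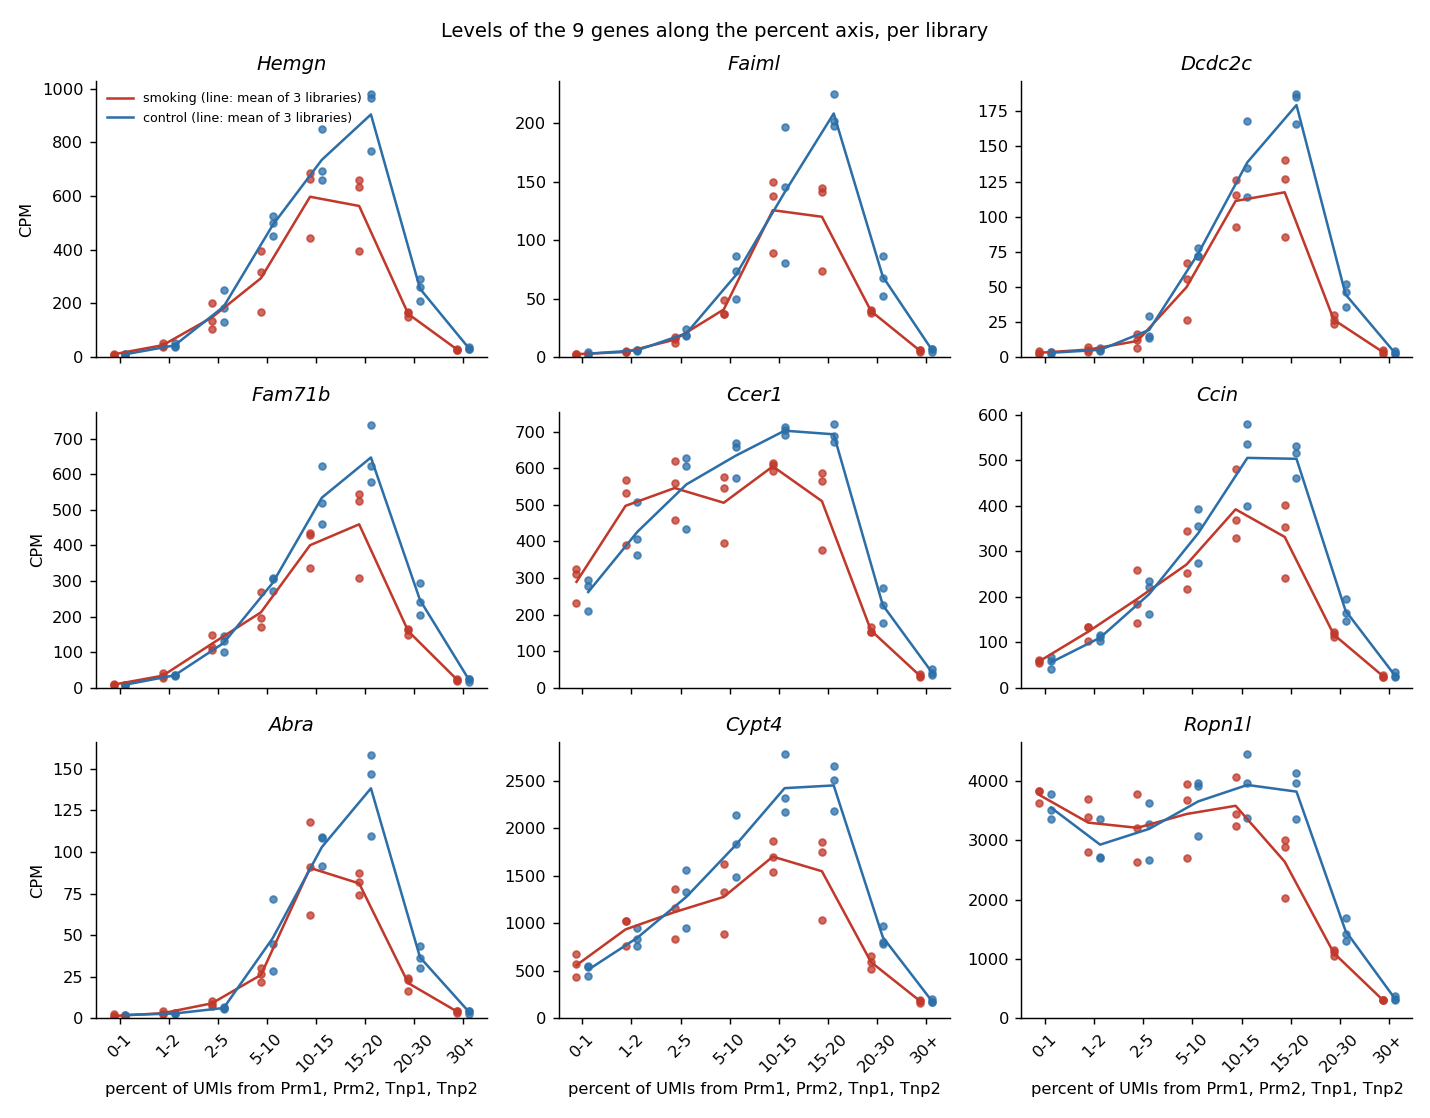
Level of each of the 9 genes (CPM) in 8 ranges of the percent of UMIs from Prm1, Prm2, Tnp1 and Tnp2. Points are the 6 libraries and lines the means of the 3 smoking (red) and 3 control (blue) libraries; Hemgn peaks at 15 to 20 percent and falls to about 30 CPM beyond 30 percent, and the groups lie apart at 15 to 20 and 20 to 30 percent.

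Summed over whole ranges of percent, smoking levels lay below control levels in each of the 4 ranges between 5 and 30 percent. In steps of 2 points, given below, the lower levels ended at 22 percent, with control 1 low in the step after it. The genes had been picked by values of this kind. Hemgn at 15 to 20 percent had 659, 635 and 396 CPM in smoking 1 to 3, against 964, 980 and 768 CPM in control 1 to 3. Cypt4 there had 1860, 1753 and 1034 CPM in smoking libraries, against 2513, 2659 and 2188 CPM in control libraries. Every smoking library lay below every control library for both genes, with smoking 3 the lowest.

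Over the 9 genes the median ratio of the smoking mean to the control mean was 0.654 at 15 to 20 percent (0.576 for Faiml to 0.736 for Ccer1) and 0.645 at 20 to 30 percent. In both ranges the libraries of the groups did not overlap for 9 of 9 genes. All smoking libraries lay below all control libraries for 15.2% of the 5483 genes that averaged 10 CPM or more at 15 to 20 percent, where no model was fitted, and for 12.8% of the 9881 genes tested at 20 to 30 percent. At 5 to 10 percent the median ratio was 0.702, with 4 of 9 genes without overlap, against 5.91% of the 7463 genes averaging 10 CPM or more. That count of 4 was 8 without smoking 1 and 7 without control 3. At 10 to 15 percent the median ratio was 0.813, with 3 of 9 genes without overlap (5 without control 3), against 3.33% of 6283 genes.

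Below 5 percent and at 30 percent or more the 9 genes showed no common direction. The smoking mean was lower for 4 of 9 below 1 percent (0 without overlap, 9.86% of all genes), for 2 of 9 at 1 to 2 percent (1 without overlap, 4.16%) and for 7 of 9 at 2 to 5 percent (1 without overlap, 3.09%). At 30 percent or more it was lower for 6 of 9, none without overlap, where 9.82% of all genes had all smoking libraries below all controls. The steep loss of the members fell at 22 to 24 percent, and in steps of 2 points the ratio changed side there. It was below 1 for 9 of 9 genes at 18 to 20 percent (median 0.663) and at 20 to 22 percent (0.756), and for 0 of 9 at 22 to 24 percent, where the median was 1.15. In that last step control 1 (21 barcodes) was the lowest library for each gene. Hemgn had 352, 243 and 393 CPM in smoking 1 to 3 and 141, 349 and 448 CPM in control 1 to 3. Its smoking mean of 329 CPM thus lay below controls 2 and 3. That of Ccer1, 369 CPM, lay between their 269 and 428 CPM. The change of side at this step therefore leans on control 1. From 24 to 30 percent 1 to 3 of 9 genes had a ratio below 1, and from 24 to 34 percent the step medians lay between 0.962 and 1.10. The ratio of 0.645 over the whole range of 20 to 30 percent is a ratio of sums whose barcodes were not matched for percent within it.

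The range of 10 to 22 percent, before the loss, was therefore examined as a whole, a range chosen after seeing the data. It held 84, 99 and 205 barcodes in smoking 1 to 3 and 60, 44 and 104 in control 1 to 3. Among the nuclear genes, Hemgn had 686, 636 and 451 CPM in smoking libraries and 900.5, 843 and 795 CPM in control libraries, a ratio of means of 0.698. Ccer1 had 581, 596 and 472 CPM in smoking libraries and 689, 725 and 696 CPM in control libraries (ratio 0.782).

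Of the theca genes, Ccin had 415, 421 and 281 CPM in smoking libraries and 521, 512 and 458 CPM in control libraries (ratio 0.749). Cypt4 had 1906, 1736 and 1272 CPM in smoking libraries and 2568, 2436 and 2149 CPM in control libraries (0.687). The flagellar gene Ropn1l had 3168, 3472 and 2479 CPM in smoking libraries and 4059.7, 4008 and 3511 CPM in control libraries (0.788). For each of these 3 genes the groups did not overlap, and smoking 3 was lowest.

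Dcdc2c had 133, 121 and 96.7 CPM in smoking libraries and 177, 156 and 158 CPM in control libraries (0.712). Fam71b had 552, 507 and 374 CPM in smoking libraries and 728, 628 and 666 CPM in control libraries (0.708). Abra had 100.9, 81.8 and 75.7 CPM in smoking libraries and 133, 134 and 117 CPM in control libraries (0.673). Smoking 3 was the lowest library for each of these 3 genes too. Faiml was furthest apart, with 156, 150.4 and 94.3 CPM in smoking libraries and 206, 213 and 191 CPM in control libraries (0.657).

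In all, 9 of 9 genes showed no overlap at 10 to 22 percent, against 7.5% of the 8309 genes tested. The edgeR log2 folds ran from −0.63 for Faiml to −0.36 for Ropn1l with a median of −0.52, while the median over all genes tested was 0.03. No gene of the 8309 passed an adjusted p of 0.05 in edgeR's quasi-likelihood test, 992 had an unadjusted p below it, and DESeq2 called 1. Without smoking 3 the median log2 fold of the 9 genes was −0.41, without control 3 it was −0.51, and the range over all libraries left out in turn was −0.63 to −0.41.

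Barcodes of equal percent were of 2 kinds. The Tnp share, the part of the UMIs of the 4 transcripts that came from Tnp1 and Tnp2, was under 5% in 171 of the 596 barcodes at 10 to 22 percent and between 35 and 40% in 348, and 11 lay between 10 and 30%. Divided at 20%, a value set after seeing the data, 188 barcodes were poor and 408 rich in Tnp transcripts. Prm2 was at 135060 CPM in Tnp-poor and 44151 CPM in Tnp-rich barcodes, and Tnp1 at 2741 and 26240 CPM.

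The 9 genes were nearly absent from Tnp-poor barcodes. Hemgn was at 24.04 CPM in Tnp-poor and 809.8 CPM in Tnp-rich barcodes, Dcdc2c at 3.29 and 159.8 CPM, Abra at 2.31 and 120.5 CPM, and Ccin at 20.4 and 492 CPM. The ratio of the Tnp-poor to the Tnp-rich level was highest for Ropn1l, at 0.128, with 496 CPM in Tnp-poor and 3889 CPM in Tnp-rich barcodes. With each barcode thinned to 10000 UMIs, the summed UMIs of Hemgn, Faiml, Dcdc2c, Fam71b and Abra were 3 or fewer in 187 of 188 Tnp-poor barcodes and in 41 of 408 Tnp-rich ones (10.0%).

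Tnp-poor barcodes carried more of the transcripts of late spermatids: 8 of 9 on a list of these were higher in them, such as Smcp (2.95-fold) and Dbil5 (3.502-fold), while Hmgb4 was at 0.125 of its Tnp-rich level. The summed level of 9 round spermatid markers was 375 CPM in Tnp-poor and 2143 CPM in Tnp-rich barcodes. Median depth was 14278 UMIs and 2262 genes in Tnp-poor and 27580 UMIs and 4140 genes in Tnp-rich barcodes. Of the 10 Sertoli cell markers 9 were higher in Tnp-poor barcodes, and they summed to 838 CPM in Tnp-poor and 436 CPM in Tnp-rich barcodes. Of 9 spermatocyte markers 5 were higher, with sums of 1881 CPM in Tnp-poor and 759 CPM in Tnp-rich barcodes, of which Pgk2 gave 1731 and 624 CPM. Of 8 macrophage markers 4 were higher, besides Cd74, which had 1 UMI in Tnp-poor and 0 in Tnp-rich barcodes. The 8 summed to 51.0 CPM in Tnp-poor and 17.8 CPM in Tnp-rich barcodes, of which C1qb gave 47.4 and 15.5 CPM. Of 7 Leydig cell markers 0 were higher (12.5 CPM in Tnp-poor and 61.0 CPM in Tnp-rich barcodes). The part of these cells and of depth in the 2 kinds of barcodes was not tested. Doublet scores put 12.2% of Tnp-poor and 27.9% of Tnp-rich barcodes among likely doublets.

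The share of Tnp-poor barcodes at these percents averaged higher in smoking libraries, with overlap between the groups. They made up 20.2, 32.3 and 53.2% of the barcodes at 10 to 22 percent in smoking 1 to 3 and 6.67, 4.55 and 23.1% in control 1 to 3. Control 3 thus lay above smoking 1, and the means of 35.2% ± 16.7 in smoking and 11.4% ± 10.1 in control (SD, n = 3 each) gave a two-sided exact permutation p of 0.2, where 0.1 is the smallest p that 3 against 3 libraries allow. Without control 3 the control mean was 5.61% and the groups did not overlap, and without smoking 3 the smoking mean was 26.3% and the groups overlapped. At 15 to 20 percent the Tnp-poor part was 29.4, 39.5 and 71.7% in smoking libraries and 11.1, 0 and 22.7% in control libraries, without overlap. Control 2 had 0 of 16 barcodes there, which allows a share of up to 18.8%.

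**Figure D2:**
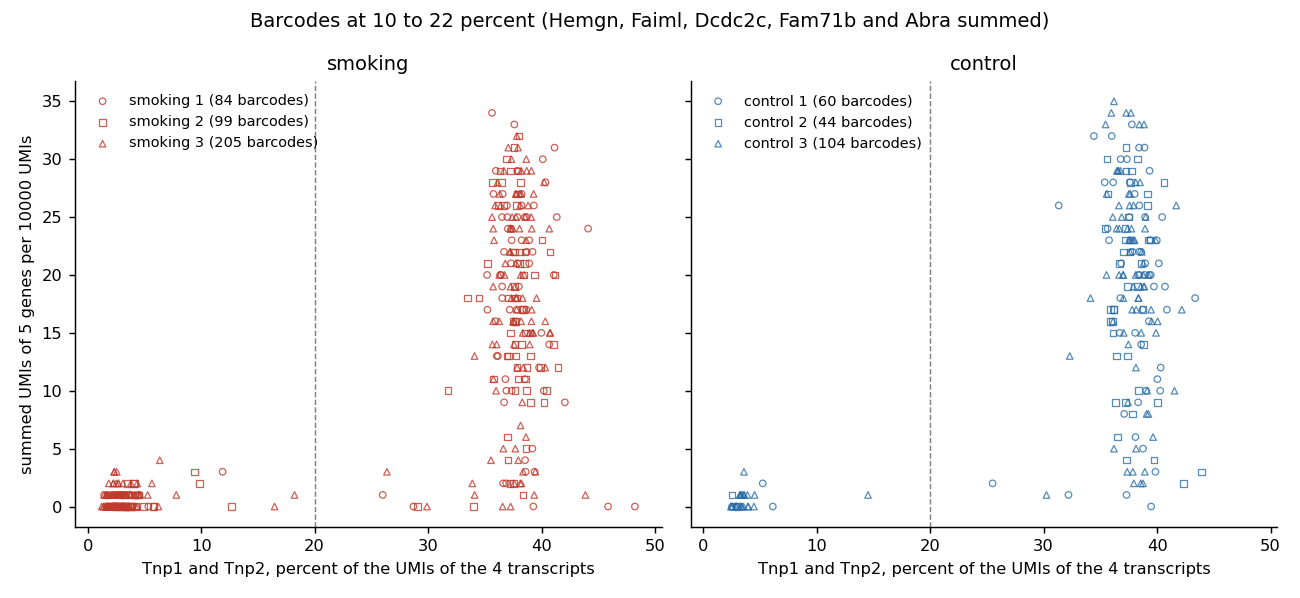
Each of the 596 barcodes at 10 to 22 percent, by its Tnp share (horizontal, percent of the UMIs of the 4 transcripts) and by the summed UMIs of Hemgn, Faiml, Dcdc2c, Fam71b and Abra after thinning to 10000 UMIs (vertical), with smoking libraries on the left and control libraries on the right. The dashed line marks 20%: 158 smoking and 30 control barcodes lie left of it, nearly all at 3 UMIs or fewer.

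Within Tnp-rich barcodes alone the differences were smaller and kept their direction. Hemgn had 780.1, 729.6 and 728 CPM in smoking libraries, against 920.2, 863 and 889 CPM in control libraries, a ratio of 0.838 where all barcodes gave 0.698. Cypt4 had 2165, 1973 and 1999 CPM in smoking libraries, against 2622, 2493 and 2378 CPM in control libraries (0.819). Faiml had 178, 172 and 150.0 CPM in smoking libraries, against 211, 218 and 213 CPM in control libraries (0.780). For these 3 genes every smoking library lay below every control library, and smoking 3 no longer stood apart.

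Ccer1 and Ropn1l overlapped between the groups in Tnp-rich barcodes. Ccer1 had 655, 678 and 735 CPM in smoking libraries and 703, 742 and 768 CPM in control libraries (ratio 0.935), and Ropn1l had 3577, 3922 and 3767 CPM in smoking libraries and 4136, 4097 and 3867 CPM in control libraries (0.931). Over the 9 genes the median ratio was 0.849, and 7 of 9 genes did not overlap, against 4.56% of the 8247 genes tested. No gene passed edgeR's adjusted p of 0.05, 910 had an unadjusted p below it, and DESeq2 called 10 genes lower and 7 higher. The median log2 fold of the 9 genes was −0.31, and it was −0.31 without smoking 3 and −0.26 without control 3.

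**Figure D3:**
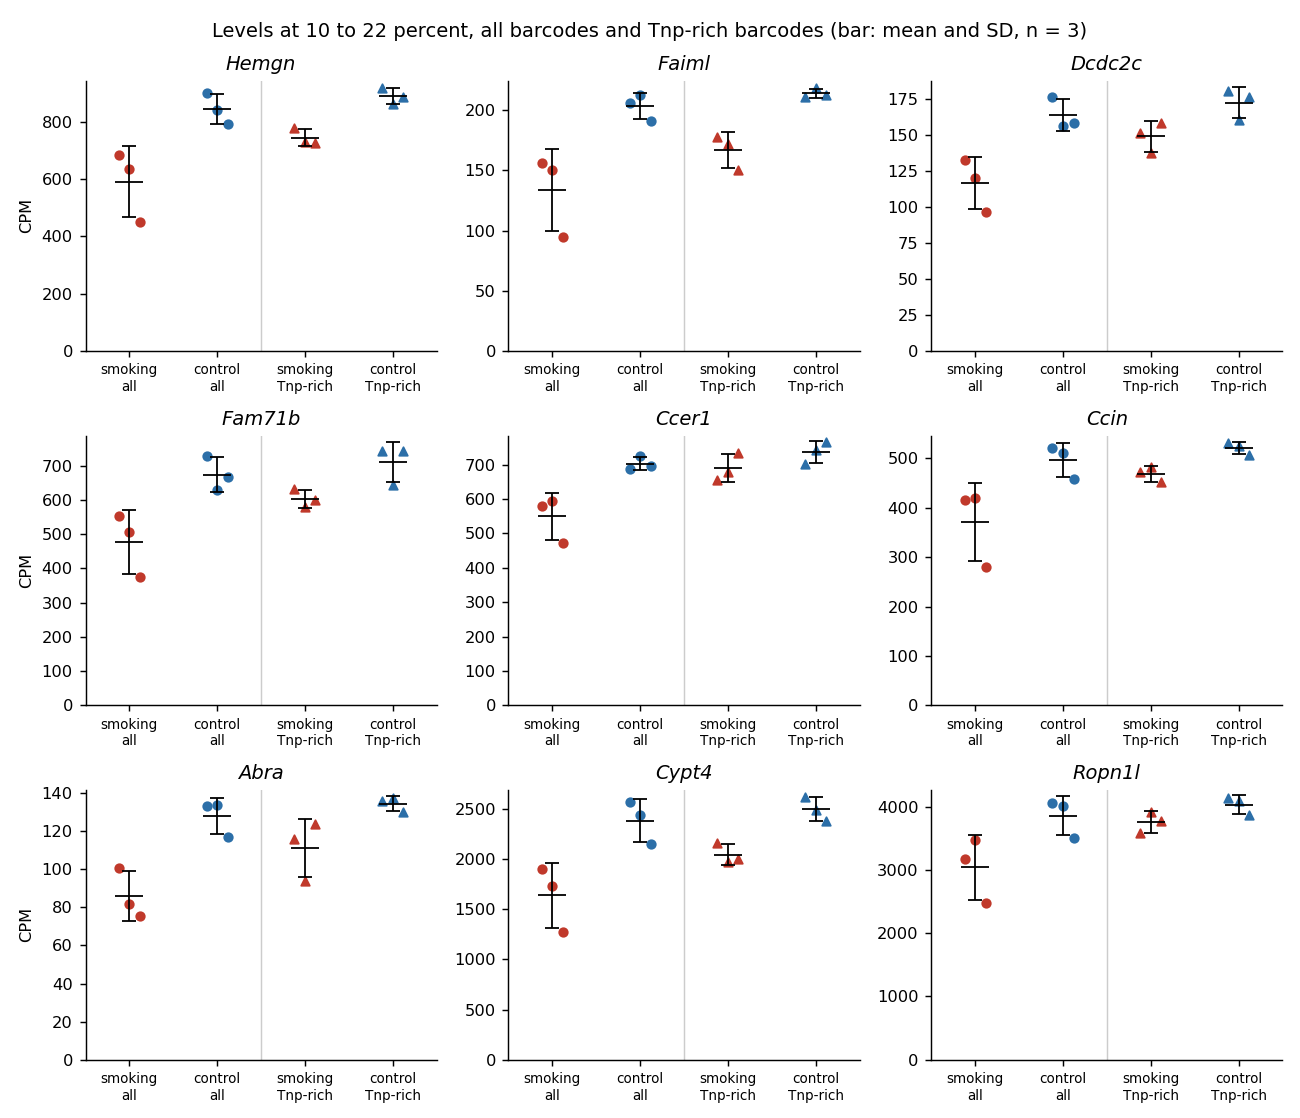
Level of each gene (CPM, axis from 0) at 10 to 22 percent in smoking and control libraries, over all barcodes (circles) and over Tnp-rich barcodes (triangles), with mean and SD of the 3 libraries. In Hemgn the smoking mean is 591 CPM over all barcodes and 746 CPM over Tnp-rich ones, and the control means are 846 and 891 CPM.

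Depth and the place of barcodes within the range also varied between libraries, with overlap between the groups. Median percents of Tnp-rich barcodes were 18.4, 17.1 and 19.1 in smoking libraries and 18.0, 19.0 and 19.7 in control libraries. Median UMIs of Tnp-rich barcodes were 20466, 28054 and 27303 in smoking libraries and 24904, 31263 and 30368 in control libraries. Weighting both groups to equal percent in steps of 1 point gave a median log2 fold of the 9 genes in Tnp-rich barcodes of −0.19 by limma on CPM. The range was −0.32 (Abra) to −0.05 (Ccin). The −0.31 above is an edgeR fold with TMM scaling of library totals, so the 2 values are not on 1 scale. In CPM without weighting the median ratio was 0.849. Weighting by percent and UMIs together also gave −0.19. With each weighting 6 of 9 genes did not overlap, against 6.13% and 6.69% of all genes.

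By narrower range, Tnp-rich barcodes gave a median ratio of 0.703 at 5 to 10 percent, 0.845 at 10 to 15 percent and 0.924 at 15 to 20 percent. In the last of these Fam71b averaged 659.6 CPM in smoking and 679 CPM in control libraries, Ccer1 732 CPM in smoking and 725 CPM in control libraries, and 2 of 9 genes did not overlap (7 without smoking 3 and 5 without control 3). Faiml was among them, at 171 CPM ± 9.93 in smoking and 218 CPM ± 15.0 in control libraries (SD, n = 3 each). The share of all genes without overlap was not taken for these barcodes. Summed over 20 to 30 percent, unmatched for percent, Tnp-rich barcodes gave a median ratio of 0.692. In steps of 2 points their medians lay between 0.782 and 0.925 from 10 to 16 percent. They gave 0.975 at 16 to 18 percent, with 7 of 9 genes below 1, and 0.980 at 18 to 20 percent, with 5 of 9. The median was 0.892 at 20 to 22 percent, with 9 of 9, and 1.35 at 22 to 24 percent, with 0 of 9. Control 1 had 15 Tnp-rich barcodes in the last of these steps, where it was the lowest library over all barcodes. From 24 to 30 percent their step medians lay between 1.07 and 1.17, with 1 to 2 of 9 genes below 1.

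The range of 20 to 30 percent, across which the levels of the 9 genes drop steeply, held 257, 315 and 574 barcodes in smoking and 121, 86 and 335 in control libraries. Over all of them edgeR's adjusted p placed 6 of 9881 genes lower (0.0607%) and 1 higher (0.0101%) in smoking. That count of 7 was 1 without smoking 1, 4 without smoking 2, 17 without control 1 and 13 without control 3. The log2 folds of the 9 genes lay between −0.71 (Faiml) and −0.34 (Ropn1l).

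With 83 barcodes per library drawn to the same numbers in each step of 1 point, these differences were smaller. In the drawn barcodes Hemgn had 209, 212 and 213 CPM in smoking libraries and 239.98, 286 and 233 CPM in control libraries, still without overlap, at a log2 fold of −0.20. The folds of the 9 genes lay between −0.34 (Abra) and −0.05 (Ccer1), and 6 of 9 did not overlap, against 9.57% of all genes tested. That count belongs to this draw. With all barcodes of the range weighted to equal percent, 2 of 9 did not overlap, against 10.6% of all genes. Weighted by percent and UMIs together it was 1 of 9, against 8.02%. In the drawn barcodes edgeR called 2 of 6429 genes lower (0.0311%) and 0 higher, with 467 genes at an unadjusted p below 0.05 and 4 called by DESeq2. When barcodes were drawn to equal percent and equal UMIs, 7 of 9 folds were above 0, with a median of 0.09 and a range of −0.08 (Hemgn) to 0.39 (Abra). At 20 to 30 percent the size of the difference thus varied with how barcodes were drawn, and in that draw its sign turned for 7 genes.

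**Figure D4:**
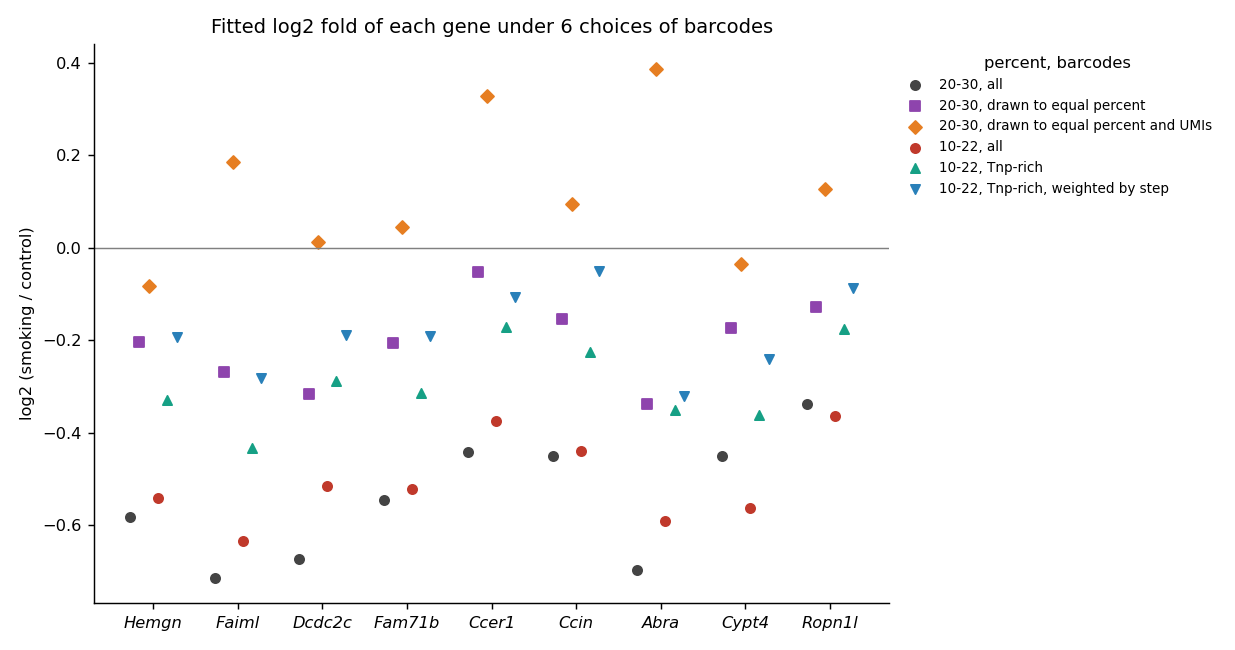
Fitted log2 fold of smoking over control for each gene under 6 choices of barcodes (symbols). The folds weighted by step are from limma on CPM and the others from edgeR with TMM scaling, so they are not on 1 scale. Over all barcodes at 20 to 30 percent (black circles) and 10 to 22 percent (red circles) the values lie between −0.71 and −0.34; in Tnp-rich barcodes weighted by step (blue triangles) they lie between −0.32 and −0.05, and drawn to equal percent and UMIs (orange diamonds) between −0.08 and 0.39.

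Depth alone was also varied at 10 to 22 percent. In barcodes of 10000 to 20000 UMIs the median ratio of the 9 genes was 0.660, with no gene free of overlap, and in barcodes of 20000 UMIs or more it was 0.775, with 9 of 9. The libraries held 14 to 124 barcodes at the lower depth and 30 to 81 at the higher. The share of all genes without overlap was not taken at either depth, so these counts cannot be set against it. Likely doublets made up 20.2, 17.2 and 24.9% of barcodes in smoking libraries and 20, 13.6 and 32.7% in control libraries. Their part in the result was not tested at 10 to 22 percent.

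Markers of other cells were measured in the same barcodes. At 10 to 22 percent 10 spermatocyte markers summed to 970 to 1405 CPM in smoking and 796 to 966 CPM in control libraries, of which Pgk2, also a spermatid gene, gave the most. The 10 Sertoli cell markers summed to 518 to 661 CPM in smoking and 159 to 562 CPM in control libraries, with Amh at 0, and the 8 macrophage markers to 19.5 to 31.0 CPM in smoking and 18.7 to 22.9 CPM in control libraries. The 7 Leydig cell markers summed to 8.57 to 205 CPM in smoking and 5.22 to 119 CPM in control libraries. In Tnp-rich barcodes the spermatocyte sum was 835 to 997 CPM in smoking and 767 to 864 CPM in control libraries and the macrophage sum 15.6 to 17.9 and 18.2 to 19.2 CPM. The part of these cells in the levels of the 9 genes was not tested.

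RNA free in the suspension sets a floor. In 431 barcodes with macrophage markers, which should lack the 9 genes, Hemgn was at 58.9 CPM and seen in 23.2% of barcodes at a median of 4509 UMIs, and Ropn1l was at 1110 CPM. In 241 barcodes with Leydig cell markers Hemgn was at 21.7 CPM and seen in 25.7% of barcodes at a median of 14479 UMIs. At 10 to 22 percent, at medians of 16518 to 30242 UMIs, Hemgn was seen in 73.8% ± 14.3 of smoking and 89.0% ± 8.16 of control barcodes (SD, n = 3 each). Thinned to 10000 UMIs these were 67.7% ± 14.5 in smoking and 83.8% ± 9.10 in control. The Hemgn level of Tnp-poor barcodes, 24.04 CPM, thus lay within that of cells which should lack it. So did their Ropn1l level of 496 CPM, since the barcodes with Leydig cell markers had 441 CPM of Ropn1l.

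The share of barcodes at 20 to 30 percent overlapped between the groups. They were 27.5% ± 3.27 of all in smoking and 24.4% ± 5.44 in control libraries (SD, n = 3 each, exact two-sided permutation p = 0.4). Barcodes at 30 percent or more did not overlap, with 32.7, 28.7 and 31.6% in smoking and 11.2, 17.2 and 22.6% in control libraries. Among barcodes at 5 percent or more, those at 5 to 20 percent averaged 11.0% in smoking and 18.2% in control libraries. The values were 10.6, 11.45 and 10.9% in smoking and 24.8, 18.2 and 11.48% in control libraries, so smoking 2 and control 3 nearly met. Both this share and that at 30 percent or more gave a p of 0.1 in the same test, the smallest possible. Of all barcodes, those at 5 to 20 percent averaged 7.23% in smoking and 8.80% in control libraries, with overlap (exact two-sided permutation p = 0.3). The centre of each gene along the percent axis, its level-weighted mean percent over the 5 ranges with at least 20 barcodes in every library, lay lower in smoking for 9 of 9 genes. Abra was centred at 18.5 percent ± 1.30 in smoking and 21.4 percent ± 0.821 in control libraries, and the median difference over the 9 genes was −1.32 points. This follows from the same levels by which the genes were picked and is no separate result.

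Genes with the same time course were then compared with the members. The 10 others most like the mean profile of the 9 genes over the same 5 ranges, by Pearson's r over 5 points, were 4921530L21Rik, Trim80, 1700030F04Rik, Ccdc185, Gm362, Clip4, 1700056E22Rik, Cdyl, Trim36 and Mprip (r 0.980 to 0.997). All 10 had negative log2 folds at 10 to 22 percent, from −0.50 for Ccdc185 and 1700030F04Rik to −0.20 for Clip4. In Tnp-rich barcodes they ran from −0.30 for Ccdc185 to −0.04 for Clip4. Cdyl, which encodes a chromodomain protein of histone exchange, had 601 CPM in smoking and 812 CPM in control libraries (log2 fold −0.46, and −0.24 in Tnp-rich barcodes).

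Of the 50 most alike, 49 were negative at 10 to 22 percent with a median of −0.35, and 26 did not overlap, against 7.5% of all genes tested. In Tnp-rich barcodes 46 were negative, the median was −0.18 and 15 did not overlap, against 4.56%. With likeness taken over all 8 ranges the medians were −0.36 and −0.17, and the counts without overlap fell to 17 and 8. The medians of these genes lay between 0 and those of the 9 genes, which were −0.52 over all barcodes and −0.31 in Tnp-rich ones. Since the 9 genes were picked by their lower smoking levels, a gap in this direction follows from the choice and is no separate result.

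Sorted by the range of their highest level, other genes differed by stage in the same barcodes. Those highest at 10 to 15 percent (907 genes) had a median log2 fold of −0.23, those highest at 15 to 20 percent (338 genes) −0.19 and those highest at 30 percent or more (589 genes) 0.16. In Tnp-rich barcodes the medians were −0.08, −0.15 and −0.10. Genes highest below 1 percent had medians of 0.11 over all barcodes and 0.09 in Tnp-rich ones. A time course like that of Hemgn was sought by the level at 15 to 20 percent. It had to be at least 5-fold that at 1 to 2 percent, with 0.25 or less of it left at 30 percent or more. Such a course was found in 151 other genes. Of these 139 were negative with a median of −0.32, and 28 did not overlap (18.5%, against 7.5% of all genes tested). In Tnp-rich barcodes 112 were negative with a median of −0.12.

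**Figure D5:**
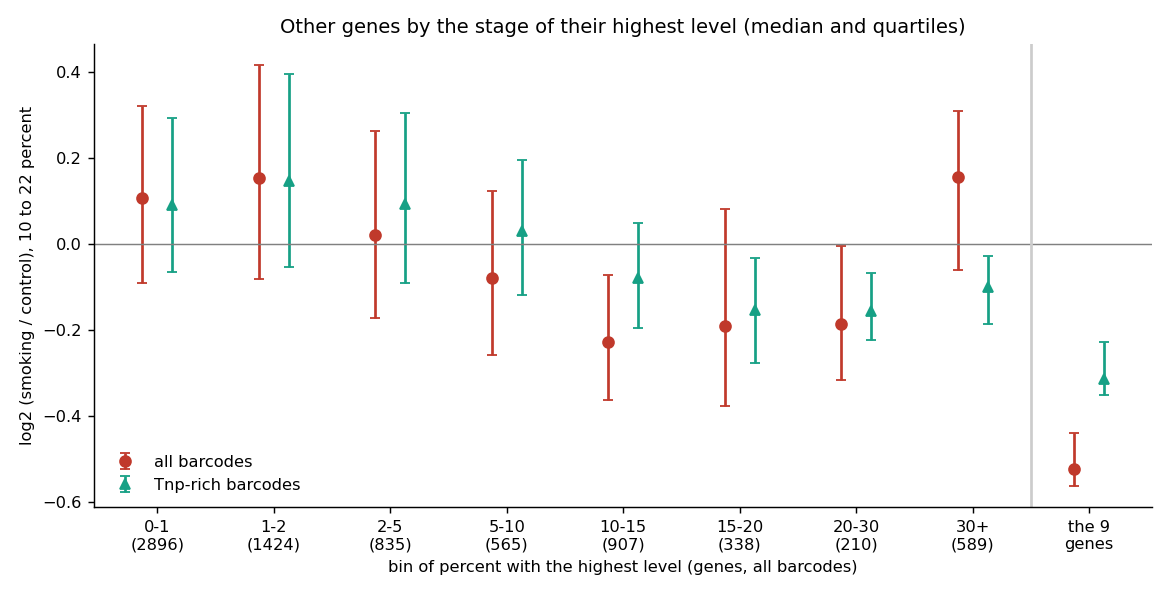
Log2 fold of smoking over control at 10 to 22 percent for genes grouped by the range of percent with their highest level, as median (symbol) and quartiles (bars), over all barcodes (red) and Tnp-rich barcodes (green), with the 9 genes at the right. Genes highest at 30 percent or more change from a median of 0.16 over all barcodes to −0.10 in Tnp-rich ones, and the 9 genes lie at −0.52 and −0.31.

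Relatives and partners of the members were taken from fixed lists, and none of their genes passed edgeR's adjusted p of 0.05 in the drawn barcodes or at 10 to 22 percent. Of 13 measured paralogs, 7 were negative in the drawn barcodes (median −0.02) and 10 at 10 to 22 percent (median −0.36; −0.18 in Tnp-rich barcodes). Cypt genes form a family of similar copies, between which counts could be split. Cypt3 had 293 CPM in smoking and 394 CPM in control libraries at 10 to 22 percent (log2 fold −0.45, and −0.08 in the drawn barcodes). Cypt1 had 858 CPM in smoking and 1024 CPM in control libraries (−0.28, and 0.13 in the drawn barcodes), Fam71f2 368 CPM in smoking and 284 CPM in control (0.36 and 0.16), and Fam71e2 56.7 CPM in smoking and 63.7 CPM in control (−0.20 and −0.18).

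The head cytoskeleton list around Ccin went no common way. Of its 22 other genes 12 were negative at 10 to 22 percent, with a median of −0.02, and 13 in the drawn barcodes, with a median of −0.03. In the drawn barcodes Spaca1, of the acrosomal membrane, was at −0.30 and Actl7b, an actin-like gene, at −0.29, and Lmntd2 was at 0.17 and Spem1 at 0.21.

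The list of fibrous sheath and radial spoke genes around Ropn1l was likewise mixed, with 9 of 19 negative at 10 to 22 percent (median 0.14) and 9 of 18 in the drawn barcodes. Fsip1 was at −0.61 and Rsph9, a radial spoke gene, at −0.35 in the drawn barcodes, and Akap4, the main fibrous sheath protein, was at 0.17 and the outer dense fibre gene Odf2 at 0.18.

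Of the histone exchange genes around Ccer1, 12 of 17 were negative at 10 to 22 percent (median −0.15) and 13 of 16 in Tnp-rich barcodes (−0.15), against 9 of 15 in the drawn barcodes. These counts include Prm1, Prm2, Tnp1 and Tnp2, at −0.13, −0.16, −0.07 and −0.18 in Tnp-rich barcodes. Percent and Tnp share were taken from these 4 transcripts, so their folds depend on how barcodes were chosen and are no separate result. Brdt, which encodes a bromodomain reader of acetylated histones, was at −0.33 and the acetyltransferase gene Kat8 at −0.13 in the drawn barcodes, and Prm2 was at 0.15 and the kinase gene Tssk6 at 0.16.

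The 9 late spermatid transcripts were higher in smoking at 10 to 22 percent for 8 of 9 (median 0.32) and lower in Tnp-rich barcodes for 7 of 9 (median −0.12). Hmgb4 was at −0.04 and Odf1 at −0.02 in the drawn barcodes, and Akap4 and Spem1 at 0.17 and 0.21. Over all genes tested the median log2 fold was −0.01 in the drawn barcodes and 0.02 in Tnp-rich barcodes.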

How the data were processed

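Single-cell RNA-seq of testis was analysed in 3 smoking and 3 control libraries made with a 10x Genomics 3′ protocol, per the labels' protocols. The authors deposited unnormalized counts of UMIs for each gene in each barcode, limited to called cells. The submitters' processing notes name CASAVA 1.8, Cell Ranger 7.1.0 and genome build mm10, whereas the matrices were written by version 3.1.0 per the file headers, and which of them made the counts could not be settled. No source used here says whether strand was considered.

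The 9 genes, the gene lists and several ranges were chosen with earlier results of these data known. Counts of barcodes with at least 10000 UMIs and at most 20% mitochondrial UMIs were summed per library in 8 ranges of percent of UMIs from Prm1, Prm2, Tnp1 and Tnp2. The planned test took 5 ranges with at least 20 barcodes in every library, which left 5 to 20 percent without a fit. The range of 10 to 22 percent, the split at a Tnp share of 20%, the weighting by step and the 8-range likeness were added after seeing the data. Groups were compared with edgeR 4.0.16 (quasi-likelihood test after filterByExpr and TMM, calling genes at a Benjamini-Hochberg adjusted p under 0.05), with DESeq2 1.42.0 as an alternative and limma 3.58.1 on log2(CPM + 1) for weighted levels, in R 4.3.3. Tests on simulated counts for the drawn barcodes called 93% of genes changed by a log2 fold of 1 and 43% of those changed by 0.5, with 4 false calls among 6223 genes. Single values were compared by exact permutation over 20 assignments. Likely doublets, from a score against simulated pairs of barcodes within each library, were kept in the main values. Limits given for a count of 0 take 3 counts and cover counting error only.

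Named beyond the 9 genes are the 10 genes with the most similar profile among those of at least 10 CPM, and, from each list, the genes with the 2 largest and 2 smallest log2 folds in the drawn barcodes among those averaging 10 CPM or more there. Gene positions are those of GENCODE M21 and promoter sequences those of RefSeq GRCm38.p6. Level differences between genes are not compared, since the counts are not per length. Alternatives comprised DESeq2, no filter on low counts, other UMI minimums, removal of doublets, other stage axes, other ways of matching barcodes, and each library left out in turn.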

Additional observations from a re-analysis of the deposited data

How the results depend on the processing

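No paired analysis was possible because the labels give the libraries no replicate numbers shared between the groups. With 83 barcodes per library drawn at 20 to 30 percent, 2 genes were called; DESeq2 called 4, no filter on low counts 48, all barcodes undrawn 7, other late spermatid transcripts as the stage axis 8, and 10 to 30 percent weighted by percent and UMIs 6. It was 1 with steps of 0.5 points, with Tnp-rich barcodes, with 10 to 30 percent weighted and doublets removed, and with 20 to 30 percent weighted by percent and UMIs. It was 0 with at least 20000 UMIs, doublets removed, the Tnp or the Prm transcripts alone as axis, 10 to 30 or 5 to 30 percent drawn, and 10 to 30 percent (all barcodes, Tnp-rich, or at least 6000 UMIs) or 10 to 20 percent weighted. Leaving out a library gave 0 to 8.

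Over all barcodes at 20 to 30 percent 7 genes were called, 48 by DESeq2, 169 without a filter and 1 to 17 with a library left out. At 10 to 22 percent 0 were called, against 1 by DESeq2, 73 without a filter and 0 to 2 with a library left out; in Tnp-rich barcodes DESeq2 called 17, no filter 139 and weighting by percent and UMIs 4.

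The median log2 fold of the 9 genes in the drawn barcodes was −0.20 (−0.24 to −0.14 with a library left out). It was −0.53 with doublets removed, −0.55 undrawn, −0.44 with other late transcripts as axis, −0.35 at 10 to 30 and −0.32 at 5 to 30 percent, and 0.094 when drawn to equal percent and UMIs. Weighted by step it was −0.56 at 10 to 20, −0.43 at 10 to 30 and −0.32 at 20 to 30 percent, and at 10 to 30 percent −0.46 with at least 6000 UMIs, −0.52 without doublets and −0.39 with each barcode scaled first. Weighted by percent and UMIs it was −0.30 at 10 to 30 percent (9 of 9 negative) and −0.10 at 20 to 30 percent (7 of 9 negative). In Tnp-rich barcodes it was −0.14 at 10 to 30 percent weighted by step (9 of 9 negative) and −0.12 when drawn at 20 to 30 percent (8 of 9 negative). At 10 to 22 percent it was −0.52 (−0.63 to −0.41), and in Tnp-rich barcodes −0.31 (−0.37 to −0.25) and, with either weighting, −0.19. Of 270 values for single genes 107 moved by more than the spread and 11 were positive, 7 of them drawn to equal percent and UMIs. The causes of these changes were not tested. Weighted folds came from limma without TMM scaling, unlike the edgeR folds, and are not on 1 scale with them.

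The share of barcodes at 20 to 30 percent differed by 3.17 points (0.720 to 6.10 with a library left out), and the centre by −1.32 points (−1.88 to −0.73). Ranges of 5 to 20 percent held 10 to 99 barcodes per library, which limits the precision there.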
